A study of Mus musculus with 6 samples.

Results

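The mitochondrial ribosomal proteins are the nuclear-encoded proteins of the ribosome inside mitochondria. Their genes were taken from the deposited expression table as all protein-coding genes whose symbol starts with Mrpl or Mrps followed by a number, which gave 77 of 18956 genes in the table. Of these, 48 were large subunit genes (Mrpl) and 29 were small subunit genes (Mrps). All 77 passed the filter on low values, so every member was tested. Endothelial cells of the mouse lung gave 6 RNA libraries, 3 labelled CSE-KO and Cre-positive and 3 labelled WT and Cre-negative. CSE is cystathionine gamma-lyase, the enzyme encoded by Cth, which forms cysteine from cystathionine. The study's title sets the comparison within work on cystine import, its breakdown, histone acetylation and growth of blood vessels. No source used here gives the strain, the age or sex of the mice, the Cre driver, the deleted exons, a treatment, or whether replicates came from separate animals or cultures.

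Mitochondria keep a small genome that encodes core subunits of the respiratory chain and the ribosomal RNAs needed to translate them. The proteins of the mitochondrial ribosome are made in the cytosol from nuclear genes and imported. The small subunit binds the messenger RNA and decodes it, and the large subunit joins the amino acids and releases the chain through an exit tunnel towards the inner membrane. Some of these proteins descend from the bacterial ribosome, while others were added in the mitochondrial lineage. In endothelial cells, which draw much of their energy from glycolysis, mitochondria also supply building blocks for growth.

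Totals of normalized counts lay between 5698922 and 5765008 in the libraries labelled CSE-KO and between 6028772 and 6052275 in those labelled WT. Cth itself stood at 49, 43 and 63 normalized counts in CSE-KO 1 to 3, against 29, 27 and 26 in WT 1 to 3, which goes against the label. A value summed over the whole gene does not check whether some exons were deleted, so the groups are named by their labels and every direction given is that of libraries so labelled. The replicates varied little. The variance was set relative to 1, the value for pure counting error in unscaled counts. Between WT libraries it was 0.709 to 0.757 over all tested genes, and between CSE-KO 2 and CSE-KO 3 it was 0.860. CSE-KO 1 stood apart from CSE-KO 2 with a value of 1.63 and from CSE-KO 3 with 1.92. Over the mitoribosomal genes the value was 0.534 to 0.586 in the libraries labelled CSE-KO and 0.331 to 0.454 in those labelled WT. The values used here were scaled, so they do not show whether the libraries within a group are technical repeats. The libraries may be such repeats, and the p-values given here reflect only how much these libraries vary. WT was also counted as 1 sample, and CSE-KO 2 and CSE-KO 3 together as 1 sample. The median log2 fold change was then 0.15 for the large subunit and 0.11 for the small subunit. Calls were fewer, among the mitoribosomal genes and among all tested genes.

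Mitoribosomal genes rose more often than they fell, by small amounts. In limma with Benjamini-Hochberg adjustment over 13750 genes and a threshold of 0.05, 39 of the 77 genes rose and 13 fell in the libraries labelled CSE-KO, and 25 were not called. Among all tested genes, 38.3% rose and 39.0% fell, with 77.4% called in all, so fewer of the mitoribosomal genes were called (67.5%) and 50.6% of them rose. The median log2 fold change of the 77 genes was 0.14, against 0.001 over all tested genes. It was 0.12, 0.16 and 0.14 when each of CSE-KO 1 to 3 was set against the WT mean. In 39 genes all 3 CSE-KO libraries lay above all WT libraries and in 16 they lay below, where the shares over all tested genes were 40.0% and 40.4% (80.4% together). Of the 52 calls, 22 were under 1.2-fold, against 2228 of the 10639 calls over all tested genes. A test against a fold of 1.2 called 17 (14 higher and 3 lower), where 23.1% and 25.7% of all tested genes passed upward and downward. Calls of 1.5-fold or more numbered 7 rises and 2 falls, against 17.4% and 20.9% of all tested genes. The changes of single genes ran between −0.78 and 1.11 on the log2 scale.

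**Figure D1:**
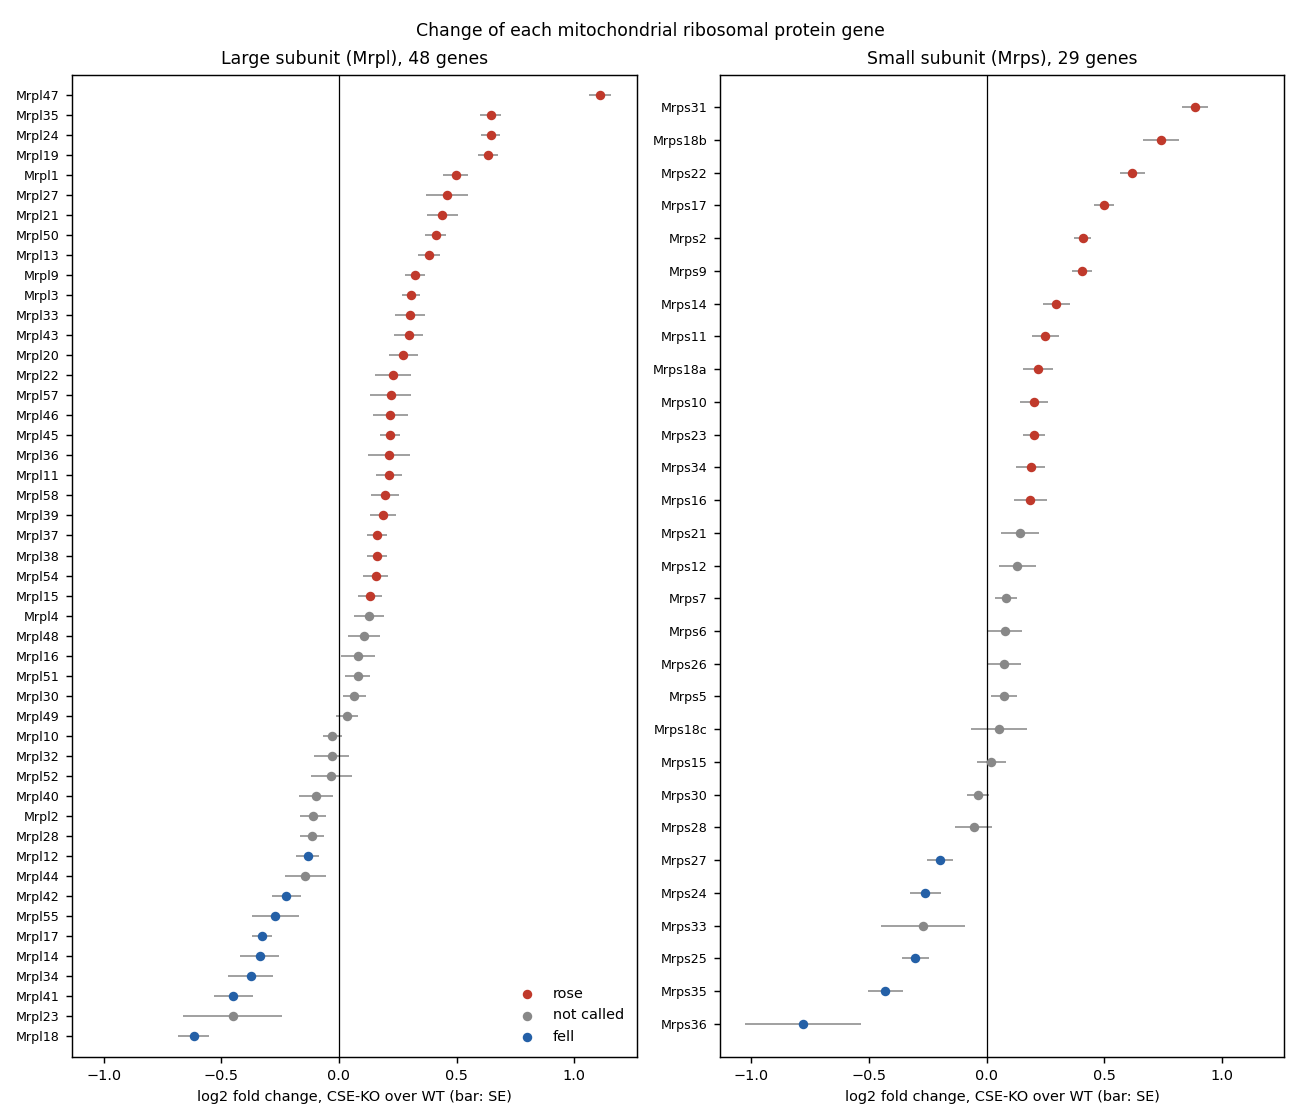
Log2 fold change of each mitoribosomal gene, CSE-KO over WT (points, with SE as bars), for the 48 large subunit genes on the left and the 29 small subunit genes on the right, coloured by call. In both subunits most points lie between −0.5 and 0.5, with Mrpl47, Mrps31 and Mrps18b farthest to the right and Mrpl18 and Mrps36 farthest to the left.

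Both subunits held more rises than falls. Of 48 large subunit genes 26 rose, 8 fell and 14 were not called, with a median log2 fold change of 0.16. Of 29 small subunit genes 13 rose, 5 fell and 11 were not called, with a median of 0.13. The medians differed by 0.027. With CSE-KO 1 to 3 each set against the WT mean, the large subunit medians were 0.132, 0.167 and 0.139. Those of the small subunit were 0.102, 0.158 and 0.137. The subunits thus lay closer together in CSE-KO 2 and CSE-KO 3 than in CSE-KO 1, and the differences within these libraries had an SD of 0.015. The difference of 0.027 turned to −0.015 once members that overlap a gene on the other strand were left out, a choice made after the data were seen. Placing Mrps30 and Mrps18a with the large subunit, where structures of the ribosome put them, and leaving out Mrps36 gave 27 rises and 8 falls among 50 large subunit genes and 12 rises and 4 falls among 26 small subunit genes.

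Summed over its genes, the large subunit held 13231, 13458 and 13192 normalized counts in CSE-KO 1 to 3, against 11769, 11804 and 11822 in WT 1 to 3. The small subunit held 7065, 7134 and 7109 in CSE-KO 1 to 3, against 6243, 6226 and 6222 in WT 1 to 3. Both sums were higher in every CSE-KO library than in any WT library. As a share of all normalized counts, the large subunit made up 0.232% ± 0.0040 in CSE-KO libraries and 0.195% ± 0.00058 in WT libraries (SD, n = 3 each). The small subunit made up 0.124% ± 0.0013 in CSE-KO libraries and 0.103% ± 0.00026 in WT libraries (SD, n = 3 each). These shares also contain the difference in library totals. The ratio of the large subunit sum to the small subunit sum was 1.87 ± 0.015 in CSE-KO libraries and 1.89 ± 0.0077 in WT libraries, and the groups overlapped.

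**Figure D2:**
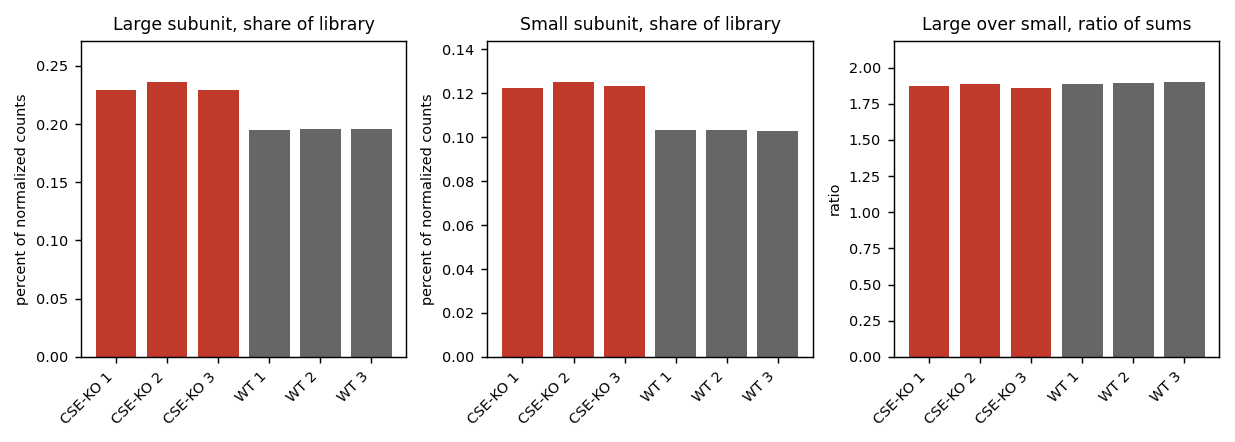
Share of all normalized counts in each library taken by large subunit genes (left) and small subunit genes (middle), in percent, and the ratio of these sums (right), with CSE-KO libraries in red and WT libraries in grey. The 3 CSE-KO bars are higher than the 3 WT bars in both shares, and the ratio lies between 1.86 and 1.90 in all 6 libraries.

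Promoters of mitochondrial genes are known for binding sites of the factors NRF1, GABPA (also called NRF2) and YY1. RefSeq promoter windows on GRCm38.p6, from 250 bases before to 50 bases after the start, were found for 68 of the 77 genes and for 9765 tested protein-coding genes. Mrpl4, Mrpl13, Mrpl15, Mrpl19, Mrpl38, Mrpl54, Mrps28, Mrps34 and Mrps35 had no match. Both strands were searched for 8 motifs. The NRF1 letters (GCGCA, any base, then GCGC) were in 19.1% of the mitoribosomal windows (13 genes) and in 10.8% of all windows. The GABPA letters CCGGAAG were in 35.3% (24 genes) and in 18.6% of all windows. The YY1 letters AANATGGCG were in 16.2% (11 genes) and in 5.44% of all windows. At least 1 of these 3 was found in 58.8% of mitoribosomal windows, against 30.7% of all windows. The SP1 letters GGGCGGGG were in 23.5% against 34.4%, the E-box CACGTG in 7.35% against 10.2%, the ACTACAA motif in 7.35% against 4.52% and the CRE letters TGACGTCA in 2.94% against 3.25%. The letters TGATGNAA, which amino acid response elements bound by Atf4 share, were in none of the 68 mitoribosomal windows and in 216 of all 9765 windows.

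Windows with these motifs occurred among genes of every call. At least 1 of the NRF1, GABPA and YY1 motifs was in 21 of 33 windows of genes that rose, in 8 of 12 windows of genes that fell and in 11 of 23 windows of genes that were not called. The stretches printed here run from 100 bases before to 30 bases after the RefSeq start, 5′ to 3′ on the gene's strand, with motif letters in capitals. They pair a gene that rose with one that fell and holds the same motif, and were chosen with the calls known. Mrpl9 rose and Mrpl17 fell, and both hold the NRF1 letters.
Mrpl9 (chr3:94443236-94443365, plus strand): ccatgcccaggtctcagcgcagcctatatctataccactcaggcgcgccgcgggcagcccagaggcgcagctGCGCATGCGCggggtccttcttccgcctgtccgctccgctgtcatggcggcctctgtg
Mrpl17 (chr7:105811058-105811187, minus strand): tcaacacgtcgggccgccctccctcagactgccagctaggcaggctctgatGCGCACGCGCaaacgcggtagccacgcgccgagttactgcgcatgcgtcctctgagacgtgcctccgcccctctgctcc
Mrps22 rose and Mrpl34 fell, and both hold the GABPA letters.
Mrps22 (chr9:98601650-98601779, minus strand): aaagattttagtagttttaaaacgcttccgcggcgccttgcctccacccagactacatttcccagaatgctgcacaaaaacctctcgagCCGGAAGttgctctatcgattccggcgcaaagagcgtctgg
Mrpl34 (chr8:71464826-71464955, plus strand): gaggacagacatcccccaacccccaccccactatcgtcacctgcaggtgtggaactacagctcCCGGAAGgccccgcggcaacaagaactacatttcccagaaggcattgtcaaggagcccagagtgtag
Mrpl27 rose and Mrps27 fell, and both hold the GABPA and YY1 letters, the GABPA letters of Mrps27 on the opposite strand.
Mrpl27 (chr11:94653691-94653820, plus strand): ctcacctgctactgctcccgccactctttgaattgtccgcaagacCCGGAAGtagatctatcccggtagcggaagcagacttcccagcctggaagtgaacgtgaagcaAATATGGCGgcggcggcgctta
Mrps27 (chr13:99344686-99344815, plus strand): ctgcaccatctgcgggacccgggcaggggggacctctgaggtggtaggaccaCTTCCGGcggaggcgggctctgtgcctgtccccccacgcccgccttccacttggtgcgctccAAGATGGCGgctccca
Mrpl47 had the largest rise and Mrpl18 the largest fall of the large subunit. Neither stretch holds any of the 8 motifs, and the whole window of Mrpl18 holds the GABPA letters farther upstream.
Mrpl47 (chr3:32736726-32736855, minus strand): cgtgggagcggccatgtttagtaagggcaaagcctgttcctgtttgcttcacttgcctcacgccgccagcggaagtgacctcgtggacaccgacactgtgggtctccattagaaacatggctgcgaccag
Mrpl18 (chr17:12916062-12916191, minus strand): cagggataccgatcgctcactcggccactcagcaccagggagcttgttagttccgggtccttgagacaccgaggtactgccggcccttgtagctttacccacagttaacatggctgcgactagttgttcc

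Mrpl47, whose protein sits beside the exit tunnel, rose the most of all 77 genes. It had 428, 425 and 445 normalized counts in CSE-KO 1 to 3, against 201, 198 and 202 in WT 1 to 3. The 2 groups were far apart, with 433 ± 10.8 in CSE-KO libraries and 200 ± 2.08 in WT libraries (SD, n = 3 each), a log2 fold change of 1.11 (SE 0.047, limma adjusted p = 5.03e-09). The gene (ENSMUSG00000037531) spans 32725397 to 32737605 on the minus strand of chromosome 3 (mm10), and 1068 bases of its exons overlap exons of Actl6a and Ndufb5 on the other strand. Those neighbours moved little, with log2 fold changes of −0.02 for Actl6a (adjusted p = 0.689, not called) and −0.20 for Ndufb5 (adjusted p = 0.0090).

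Further large subunit genes with bacterial counterparts rose by smaller amounts than Mrpl47. Mrpl35, on chromosome 6 from 71812997 to 71826969, had 396, 391 and 385 normalized counts in CSE-KO 1 to 3, against 247, 247 and 255 in WT 1 to 3 (log2 fold change 0.64, SE 0.045, adjusted p = 1.83e-07). Mrpl24, which also lines the exit tunnel, had 534, 540 and 545 in CSE-KO 1 to 3, against 361, 335 and 340 in WT 1 to 3 (log2 fold change 0.64, SE 0.041, adjusted p = 9.87e-08). No CSE-KO value of either gene came near the WT values. Mrpl19 had 449, 470 and 486 normalized counts in CSE-KO 1 to 3, against 302, 304 and 299 in WT 1 to 3 (log2 fold change 0.63, adjusted p = 1.79e-07). Mrpl1, the protein of the mobile stalk where spent tRNA leaves, had 301, 298 and 297 in CSE-KO 1 to 3, against 208, 220 and 207 in WT 1 to 3 (log2 fold change 0.50, adjusted p = 5.37e-06). Mrpl24 overlaps Rrnad1 on the other strand, which rose too (log2 fold change 0.89), and Mrpl19 overlaps Gcfc2, which rose as well (0.30). No source used here says whether the authors counted reads by strand, so reads of such pairs may be mixed. The other 21 large subunit genes that rose had log2 fold changes between 0.13 and 0.46, from Mrpl15 to Mrpl27.

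Mrpl18, a protein of the central protuberance at the top of the large subunit, fell the most among large subunit genes. It had 180, 157 and 174 normalized counts in CSE-KO 1 to 3, against 264, 259 and 260 in WT 1 to 3, with no overlap. Its log2 fold change was −0.62 (SE 0.066, adjusted p = 6.02e-06). The gene spans 12911349 to 12916345 on the minus strand of chromosome 17. It overlaps Tcp1, a subunit of the cytosolic chaperonin, on the other strand, and Tcp1 rose (log2 fold change 0.21). Mrpl41 had 108, 103 and 117 normalized counts in CSE-KO 1 to 3, against 146, 151 and 151 in WT 1 to 3 (log2 fold change −0.45, adjusted p = 0.00042). Mrpl34 had 120, 102 and 100 in CSE-KO 1 to 3, against 136, 135 and 146 in WT 1 to 3 (log2 fold change −0.38, adjusted p = 0.0037). Each of these falls held without any overlap between the groups. Mrpl14 had 112, 116 and 103 normalized counts in CSE-KO 1 to 3, against 140, 142 and 136 in WT 1 to 3 (log2 fold change −0.34, adjusted p = 0.0032). Mrpl17, another gene at the exit tunnel, had 316, 321 and 309 in CSE-KO 1 to 3, against 387, 395 and 406 in WT 1 to 3 (log2 fold change −0.33, adjusted p = 3.23e-05). Mrpl12, Mrpl42 and Mrpl55 also fell, with log2 fold changes of −0.13, −0.22 and −0.27.

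In the small subunit, Mrps31 rose the most. This protein has no bacterial counterpart. It had 363, 343 and 372 normalized counts in CSE-KO 1 to 3, against 197, 200 and 186 in WT 1 to 3, a log2 fold change of 0.88 (SE 0.056, adjusted p = 8.53e-08). The groups lay far apart, and no other gene's exons overlap Mrps31, which lies on chromosome 8 from 22411361 to 22429665. Mrps18b, on chromosome 17 from 35910379 to 35916389, had 256, 235 and 231 in CSE-KO 1 to 3, against 132, 146 and 154 in WT 1 to 3 (log2 fold change 0.74, SE 0.077, adjusted p = 4.61e-06). Mrps18b belongs to a family with Mrps18a and Mrps18c, all related to the same bacterial protein, and the paralogs moved less. Mrps18a rose by 0.22 on the log2 scale (adjusted p = 0.0097), and Mrps18c was not called, with 85, 100 and 79 normalized counts in CSE-KO 1 to 3, against 92, 84 and 78 in WT 1 to 3.

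Mrps22 had 304, 320 and 312 normalized counts in CSE-KO 1 to 3, against 208, 201 and 200 in WT 1 to 3 (log2 fold change 0.62, SE 0.052, adjusted p = 8.51e-07). In humans, mutations of MRPS22 cause a mitochondrial disease. Mrps17 had 498, 489 and 493 in CSE-KO 1 to 3, against 356, 334 and 358 in WT 1 to 3 (log2 fold change 0.50, adjusted p = 8.14e-07). Mrps2 had 498, 508 and 509 in CSE-KO 1 to 3, against 385, 378 and 378 in WT 1 to 3 (log2 fold change 0.41, adjusted p = 1.35e-06). In all 3 genes the lowest CSE-KO value was above the highest WT value. The other 8 small subunit genes that rose had log2 fold changes between 0.19 and 0.40, from Mrps16 to Mrps9.

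Mrps36 had the largest fall in the small subunit by fold. It has the symbol of a ribosomal protein, but its protein is known as a part of the alpha-ketoglutarate dehydrogenase complex of the citric acid cycle. It had 18, 18 and 11 normalized counts in CSE-KO 1 to 3, against 29, 27 and 24 in WT 1 to 3 (log2 fold change −0.78, SE 0.25, adjusted p = 0.013), at levels where each count weighs heavily. Mrps35 had 135, 131 and 147 normalized counts in CSE-KO 1 to 3, against 182, 180 and 195 in WT 1 to 3 (log2 fold change −0.43, adjusted p = 0.00029). Mrps25 had 222, 212 and 201 in CSE-KO 1 to 3, against 259, 265 and 259 in WT 1 to 3 (log2 fold change −0.30, adjusted p = 0.00056). Neither gene has a bacterial counterpart, and in both the groups did not overlap. Mrps24 had 154, 168 and 162 in CSE-KO 1 to 3, against 186, 197 and 197 in WT 1 to 3 (log2 fold change −0.26, adjusted p = 0.0042), and shares 226 exon bases with Urgcp on the same strand. Mrps27, whose protein carries repeats that bind RNA, had 328, 287 and 306 normalized counts in CSE-KO 1 to 3, against 346, 360 and 350 in WT 1 to 3 (log2 fold change −0.20, adjusted p = 0.0063).

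**Figure D3:**
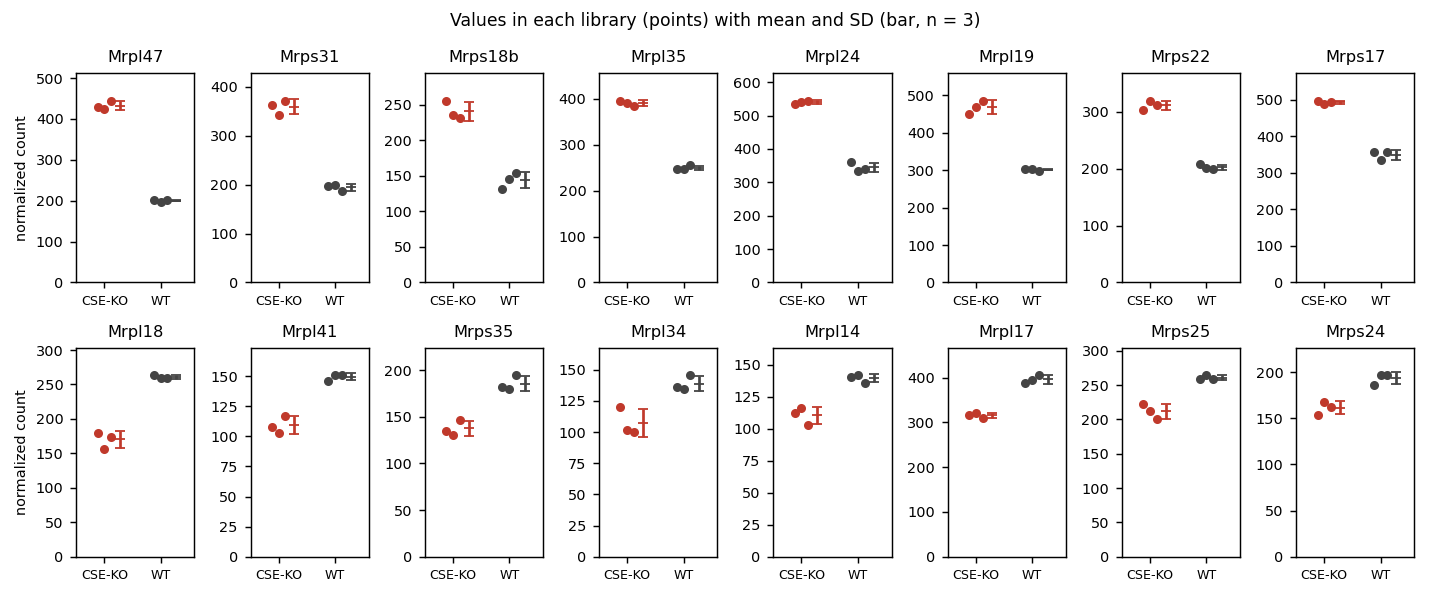
Normalized counts in each library for 8 mitoribosomal genes that rose (top) and 8 that fell (bottom), with CSE-KO libraries in red left of WT libraries in grey, and the mean and SD beside the points (n = 3 each). In each of the 16 panels the 2 groups do not overlap, from Mrpl47 with 425 to 445 in CSE-KO and 198 to 202 in WT to Mrps24 with 154 to 168 in CSE-KO and 186 to 197 in WT.

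The parts of the large subunit gave different counts, each over few genes. At the exit tunnel, where the new chain leaves the ribosome, 5 of 8 genes rose and 1 fell, with a median log2 fold change of 0.20. Mrpl22, Mrpl24, Mrpl39, Mrpl45 and Mrpl47 rose and Mrpl17 fell, while Mrpl23 and Mrpl44 were not called. Of 9 genes listed for the central protuberance, which contacts the small subunit, 3 rose (Mrpl27, Mrpl38 and Mrpl46) and 2 fell (Mrpl18 and Mrpl55), with a median of −0.03. The 4 listed genes that were not called were Mrpl40, Mrpl48, Mrpl52 and Mrps30, a large subunit protein in spite of its symbol. The list may not be complete, and Mrpl58, which rose by 0.20 on the log2 scale, was not in it. In the stalk that recruits translation factors, Mrpl11 rose by 0.21 on the log2 scale, Mrpl12 fell by 0.13 and Mrpl10 was not called, and Mrpl53 was not analysed here. Mrpl12 had 290, 309 and 311 normalized counts in CSE-KO 1 to 3, against 322, 343 and 333 in WT 1 to 3, and its fall was lost with equal library totals (adjusted p = 0.303) and under upper-quartile scaling (adjusted p = 0.151).

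Genes with a bacterial counterpart and genes without one gave similar counts in the large subunit. Of 30 with a counterpart 16 rose and 6 fell (median log2 fold change 0.17), and of 18 without one 10 rose and 2 fell (median 0.16). In the small subunit, 8 of 17 genes with a counterpart rose and 1 fell, Mrps24 (median 0.14). Of the 9 small subunit genes without one, Mrps22, Mrps23, Mrps31 and Mrps34 rose and Mrps25, Mrps27 and Mrps35 fell (median 0.07). The difference between these groups of genes was not tested.

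The genes that were not called lay close to 0. Among 14 in the large subunit, Mrpl10 had 424, 431 and 406 normalized counts in CSE-KO 1 to 3, against 423, 438 and 425 in WT 1 to 3. Mrpl2, Mrpl4, Mrpl16, Mrpl28, Mrpl30, Mrpl32, Mrpl40, Mrpl44, Mrpl48, Mrpl49, Mrpl51 and Mrpl52 had log2 fold changes between −0.14 and 0.13. Mrpl23 stood out with a log2 fold change of −0.45 at a low level (23, 19 and 17 normalized counts in CSE-KO 1 to 3, against 25, 25 and 31 in WT 1 to 3, adjusted p = 0.070). Among the 11 small subunit genes that were not called, Mrps15 had 248, 247 and 228 in CSE-KO 1 to 3, against 239, 226 and 248 in WT 1 to 3. Mrps5, Mrps6, Mrps7, Mrps12, Mrps18c, Mrps21, Mrps26, Mrps28 and Mrps30 had log2 fold changes between −0.06 and 0.14, and Mrps33 had −0.27 with 30 to 38 normalized counts in CSE-KO libraries and 35 to 47 in WT libraries. In Mrpl23, Mrpl28, Mrps21 and Mrps28 the groups did not overlap although the genes were not called.

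Set per kilobase of the principal transcript, the median level of large subunit genes was 186 ± 5.69 in CSE-KO libraries and 173 ± 4.31 in WT libraries, and that of small subunit genes was 191 ± 11.6 in CSE-KO libraries and 169 ± 4.82 in WT libraries (SD, n = 3 each). Over all 6 libraries, the highest levels per kilobase were those of Mrpl33 (403), Mrpl54 (379) and Mrpl24 (330), and the lowest those of Mrps36 (30.2), Mrps33 (33.0) and Mrpl23 (33.7). In the small subunit the highest were Mrps9 (261), Mrps10 (258) and Mrps15 (255), which lay within 6 normalized counts per kilobase of each other. If reads with a shared start position were removed, the highest levels per kilobase are understated, which was not tested. The length chosen matters for some genes. Per kilobase of all annotated exons, Mrpl54 (277), Mrpl10 (249) and Mrpl2 (237) led the large subunit while Mrpl33 was at 26.3, with 7326 bases of annotated exons against 478 in its principal transcript. On that scale, Mrps23 (211), Mrps7 (197) and Mrps27 (157) led the small subunit. Across the 77 genes, the log2 fold change had a Pearson r of 0.50 and a Spearman rho of 0.39 with the log2 mean normalized count, not set per length, and an r of 0.23 and a rho of 0.17 with the log2 level per kilobase. With the level per kilobase, r was −0.0069 over the 48 large subunit genes and 0.55 over the 29 small subunit genes. These are descriptions over genes that share libraries and are not independent.

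Some mitoribosomal genes start head to head with another gene. A coding gene on the other strand started within 1000 bases of the start of 26 of the 77 genes, and 24 pairs had a tested neighbour, counting the pair Mrpl46 and Mrps11 once. Of these neighbours 13 rose, 6 fell and 5 were not called. The mitoribosomal genes of the pairs gave 11 rises and 2 falls, with 11 not called. Among all tested genes 38.3% rose and 39.0% fell. In 6 pairs both genes rose, in 1 pair both fell, in 3 the mitoribosomal gene rose while its neighbour fell, and in 7 the mitoribosomal gene was not called while its neighbour rose. Mrps18b and Ppp1r10, a regulator of protein phosphatase, start 45 bases apart and rose alike (log2 fold change 0.74 each). Mrpl41 and Pnpla7, which start 935 bases apart, fell alike (−0.45 and −0.48). Whether the genes of such pairs changed together more often than other genes was not tested.

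The 3 neighbours with the largest falls, Eme1, Ska3 and Ncapd2, were picked after their values were seen. Mrpl27 rose by 0.46 on the log2 scale, with 166, 177 and 171 normalized counts in CSE-KO 1 to 3, against 132, 110 and 133 in WT 1 to 3. Its neighbour Eme1, a DNA repair endonuclease subunit, had 52, 39 and 31 in CSE-KO 1 to 3, against 150, 171 and 167 in WT 1 to 3 (log2 fold change −2.02, adjusted p = 1.20e-06). Mrpl57 rose by 0.22, and its neighbour Ska3, a kinetochore protein, fell by 1.77 on the log2 scale. Mrpl51 was not called (log2 fold change 0.08), and Ncapd2, a condensin subunit that starts 100 bases away, fell by 1.53. Of other neighbours with such roles, Helq, a DNA repair helicase beside Mrps18c, rose by 0.53 on the log2 scale (adjusted p = 0.00026), and Eme2, a relative of Eme1 beside Mrps34, was not called (0.10). Mtbp beside Mrpl13 rose by 0.93. Each of the 3 pairs with the largest falls had its members at opposite sides of 0 in the plot of head-to-head neighbours.

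Mrpl46, in the large subunit, and Mrps11, in the small subunit, start head to head. Their RefSeq starts lie 42 bases apart on opposite strands. Mrpl46 had 183, 212 and 191 normalized counts in CSE-KO 1 to 3, against 160, 176 and 167 in WT 1 to 3 (log2 fold change 0.22, adjusted p = 0.021), a call lost without CSE-KO 2, WT 1 or WT 3 (adjusted p = 0.0947, 0.0780 and 0.0534). Mrps11 had 235, 222 and 227 in CSE-KO 1 to 3, against 193, 195 and 187 in WT 1 to 3 (log2 fold change 0.25, adjusted p = 0.0022). The log2 fold changes differed by less than the SE of either, and their annotated exons overlap, so reads of the pair may be mixed where strand was not used. The stretch between and around their starts, on the plus strand, holds none of the 8 motifs.
Mrpl46-Mrps11 (chr7:78783060-78783160, plus strand): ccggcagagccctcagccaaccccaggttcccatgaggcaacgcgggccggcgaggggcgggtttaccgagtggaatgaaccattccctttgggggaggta

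**Figure D4:**
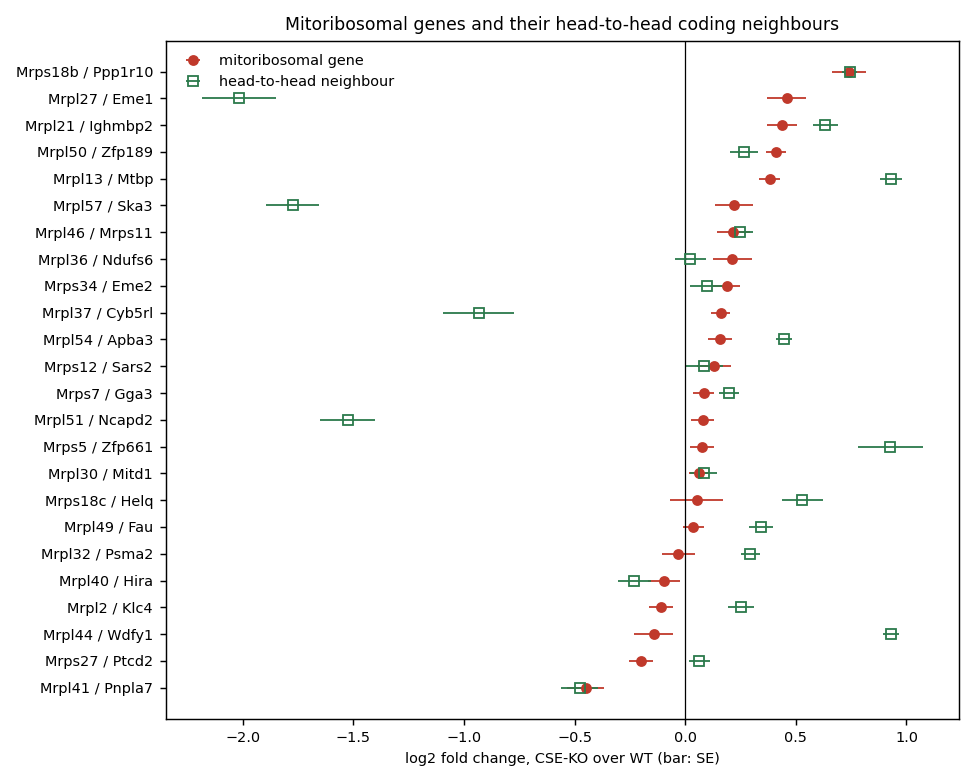
Log2 fold change, CSE-KO over WT, of 24 mitoribosomal genes (red points) and their head-to-head coding neighbours (open green squares), with SE as bars, ordered by the mitoribosomal gene. Mrps18b and Ppp1r10 coincide at 0.74, while Eme1 (−2.02), Ska3 (−1.77) and Ncapd2 (−1.53) lie far to the left of their mitoribosomal neighbours.

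The 5 mitoribosomal proteins that carry other names were all called, where 77.4% of all tested genes were. Their median log2 fold change was 0.25, against 0.14 for the 77 genes. Aurkaip1, Gadd45gip1, Chchd1 and Ptcd3 rose, with log2 fold changes of 0.35, 0.28, 0.25 and 0.11. Dap3, the GTP-binding protein of the small subunit, had 466, 469 and 466 normalized counts in CSE-KO 1 to 3, against 520, 490 and 517 in WT 1 to 3 (log2 fold change −0.12, adjusted p = 0.011), a call lost under upper-quartile scaling and with equal totals.

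Of 27 genes for assembly of the mitochondrial ribosome and modification of its RNA, 14 rose (51.9%) and 2 fell (7.4%). Their median log2 fold change was 0.13. For this list and those that follow, the matching shares over all tested genes were 38.3% and 39.0%. Trmt61b, which methylates mitochondrial RNA, had 144, 158 and 147 normalized counts in CSE-KO 1 to 3, against 76, 73 and 74 in WT 1 to 3 (log2 fold change 1.00, adjusted p = 1.20e-06). Mrm3, a methyltransferase of the large ribosomal RNA, had 186, 179 and 196 in CSE-KO 1 to 3, against 106, 88 and 88 in WT 1 to 3 (log2 fold change 0.99, adjusted p = 2.25e-06). Both genes were about 2-fold higher in every CSE-KO library. Gtpbp10, a GTPase of large subunit assembly, rose by 0.79 and Rpusd4, a pseudouridine synthase, by 0.70. Noa1, a GTPase of small subunit assembly, had 210, 218 and 205 normalized counts in CSE-KO 1 to 3, against 322, 298 and 293 in WT 1 to 3 (log2 fold change −0.53, adjusted p = 7.21e-06), and Rcc1l fell by 0.37.

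Mitochondrial translation factors were split, with 7 of 16 higher (44%) and 5 lower (31%) and a median log2 fold change of 0.01. These shares lie near those over all tested genes (38.3% and 39.0%). Gfm2, which splits the ribosome after termination, had 491, 485 and 482 normalized counts in CSE-KO 1 to 3, against 369, 350 and 376 in WT 1 to 3 (log2 fold change 0.41, adjusted p = 3.36e-06). Trmu, a tRNA thiouridylase that uses sulfur from cysteine, had 144, 141 and 150 in CSE-KO 1 to 3, against 87, 95 and 84 in WT 1 to 3 (log2 fold change 0.71, adjusted p = 2.11e-05). The insertase Oxa1l, which receives new proteins at the exit of the tunnel, had 296, 321 and 323 in CSE-KO 1 to 3, against 449, 454 and 453 in WT 1 to 3 (log2 fold change −0.53, adjusted p = 1.10e-06). Oxa1l and the elongation factor Guf1 (−0.54) thus went the other way from most mitoribosomal genes. The number of falls was 3 instead of 5 without CSE-KO 2 or without WT 3.

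Of 20 genes that copy and process mitochondrial DNA and RNA, 9 rose and 4 fell (median log2 fold change 0.17). Tfam, which packs and transcribes the mitochondrial genome, had 619, 633 and 625 normalized counts in CSE-KO 1 to 3, against 357, 368 and 370 in WT 1 to 3 (log2 fold change 0.78, adjusted p = 9.00e-09). Polg, the mitochondrial DNA polymerase, had 707, 679 and 680 in CSE-KO 1 to 3, against 1033, 987 and 965 in WT 1 to 3 (log2 fold change −0.53, adjusted p = 8.43e-08). Trmt10c, a subunit of mitochondrial RNase P, rose by 0.69 and the helicase Twnk by 0.42.

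Among 13 regulators of nuclear genes for mitochondria 5 rose and 5 fell. Each count is 38.5% of the list, near the shares over all tested genes (38.3% and 39.0%). Sp1 had 1681, 1748 and 1762 normalized counts in CSE-KO 1 to 3, against 1381, 1366 and 1371 in WT 1 to 3 (log2 fold change 0.33, adjusted p = 2.56e-07). The partners of Gabpa went apart, with Gabpb1 at 0.38 and Gabpb2 at −0.40, and Gabpa itself rose by 0.18. Nrf1 fell by 0.17, Yy1 was not called (log2 fold change −0.01), and Max and its partner Myc rose by 0.30 and 0.27. The coactivator Ppargc1a was not called at 6 to 10 normalized counts in CSE-KO libraries and 10 to 14 in WT libraries, and its relative Ppargc1b fell to 5 to 10 in CSE-KO libraries, against 17 to 19 in WT libraries. Atf4, a stress factor that controls amino acid genes, had 1024, 1033 and 1025 in CSE-KO libraries, against 752, 707 and 745 in WT libraries (log2 fold change 0.48, adjusted p = 8.56e-08).

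Of 79 cytosolic ribosomal protein genes tested, 38 rose and 3 fell, with a median log2 fold change of 0.13, and Rps15a and Rpl10a led with 0.86 and 0.64. With equal library totals 64 of them rose and 1 fell, so this count depends on the scaling. If reads with a shared start position were removed, changes of abundant transcripts among them are understated, which was not tested. Of 77 nuclear-encoded respiratory chain subunits, 21 rose and 13 fell, with a median of 0.03. Sdha of complex II fell by 0.26 on the log2 scale, and Uqcrq and Uqcrc2 of complex III rose by 0.42 and 0.23. With equal totals 35 of these rose and 8 fell. The difference between these lists and the mitoribosomal genes was not tested.

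**Figure D5:**
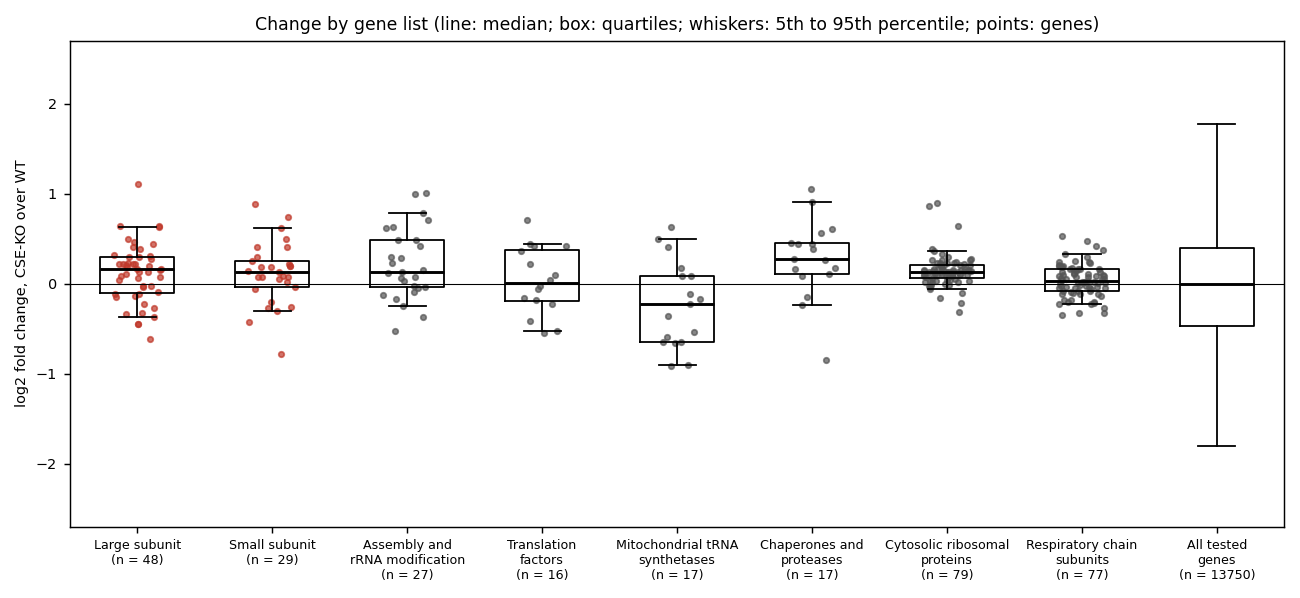
Log2 fold change, CSE-KO over WT, of the genes in each list (points) with median (line), quartiles (box) and 5th to 95th percentile (whiskers), and of all 13750 tested genes on the right without points. The medians are 0.16 for the large subunit, 0.13 for the small subunit and 0.13 for cytosolic ribosomal proteins, and the boxes of the ribosomal lists are narrower than that of all genes. Changes of abundant transcripts are understated if reads with a shared start position were removed, which was not tested.

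Markers of cell types and of proliferation differed between the groups as well. The endothelial markers summed to 10307 to 10810 normalized counts in CSE-KO libraries and 14750 to 15033 in WT libraries, with 8 of 10 lower. The endothelial cadherin Cdh5 was among these and fell by 0.08 on the log2 scale (adjusted p = 0.0012), with 2666 to 2678 in CSE-KO libraries and 2815 to 2849 in WT libraries. Of 12 macrophage markers 10 rose and 1 fell, with a median log2 fold change of 4.34 and single markers between −1.74 and 6.66. Their sums, 1418 to 1584 in CSE-KO libraries and 1046 to 1094 in WT libraries, do not show the size of these rises. Adgre1, Itgam, Marco and Ptprc were at 0 in all 3 WT libraries. The WT sum consisted largely of Cd14. Mural markers summed to 1624 to 1758 in CSE-KO libraries and 928 to 977 in WT libraries (4 of 7 higher, 2 lower). Mesothelial markers summed to 954 to 1012 in CSE-KO libraries and 650 to 681 in WT libraries (4 of 7 tested higher, 1 lower). Fibroblast markers summed to 1128 to 1463 in CSE-KO libraries and 1168 to 1267 in WT libraries (1 of 5 higher, 1 lower). Epithelial markers summed to 19 to 25 in CSE-KO libraries and 25 to 28 in WT libraries, and the 1 that passed the filter, Ager, was not called. The 6 proliferation genes all fell, with sums of 1756 to 2844 in CSE-KO libraries, CSE-KO 1 highest, and 8162 to 8335 in WT libraries. The part of these differences in the changes of mitoribosomal genes was not tested. In bulk RNA, fewer cells of a type and less RNA per cell cannot be told apart.

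In 20 of the 52 called mitoribosomal genes, CSE-KO 1 lay closer to the WT mean than CSE-KO 2 and CSE-KO 3 did. The share over all tested genes was not computed, so this count does not set CSE-KO 1 apart in these genes. Without CSE-KO 1, 48 of the 52 calls were kept, and the medians of the large and small subunit were 0.16 and 0.15. Some members have near-identical copies. Stretches of at least 75 bases with at least 97% identity to a pseudogene transcript were found in 14 members. In 5 of them, stretches shared with any other gene covered over 50% of the transcript (86.0% of Mrpl22, 78.0% of Mrpl23, 72.6% of Mrpl27, 56.3% of Mrps10 and 54.1% of Mrps21). Those of Mrpl27 were shared with 6 other genes, 1 of them a pseudogene, and those of Mrpl22, Mrpl23, Mrps10 and Mrps21 with 1 pseudogene each. Values of these 5 genes are uncertain, since the authors' counting could split their reads. The pseudogenes Mrpl48-ps and Mrpl23-ps1 were in the table, Mrpl48-ps at 5 to 8 normalized counts in CSE-KO libraries and 4 to 9 in WT libraries, and Mrpl23-ps1 at 0 to 2 in CSE-KO libraries and 1 to 3 in WT libraries. Exons of 5 members overlap another gene on the same strand (Mrpl33, Mrpl51, Mrps6, Mrps24 and Mrps34), and exons of 27 members overlap a gene on the other strand. Without those 27, 14 of 29 large subunit genes rose and 5 fell, and 10 of 21 small subunit genes rose and 3 fell.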

How the data were processed

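RNA of 6 libraries was sequenced from stranded mRNA libraries built from 300 ng of total RNA, as single-end reads of 75 bp, per the labels' protocols. The values the authors deposited are whole-number scores per gene and library, taken from their pattern to be read counts that were scaled by a factor per library and rounded (normalized counts). The unit is not named in the table or the labels, raw counts were not used here and depth in reads is unknown. The submitters' processing notes list, with no role or order, DESeq2 1.26.0, featureCounts 1.6.5, Picard 2.21.7, STAR 2.7.3a, Trimmomatic 0.39 and the build mm10. If Picard removed reads with a shared start position, levels and changes of abundant transcripts are understated. The median level was 272 normalized counts for cytosolic ribosomal protein genes and 232 for the mitoribosomal genes. Over 1947 genes under 0.01 normalized counts per base, the variance relative to counting error was 0.933 to 0.990 between WT libraries. Between CSE-KO libraries it was 1.06 to 1.27 over these genes. Whether reads were removed in this way was not tested.

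Values were taken as log2(value + 0.5) with no further scaling. Genes that reached 10 in 3 or more libraries were tested in limma 3.58.1 (R 4.3.3) with a group term, a mean trend and robust variances, two-sided, with Benjamini-Hochberg adjustment over 13750 genes and a call at 0.05. This replaced the count model planned for raw counts. Fold changes are CSE-KO over WT on that scale, which understates changes of genes with low values. The fit was also run on simulated data with independent replicates, few changed genes and a spread above counting error. The values here differ in spread and in the share of genes called, so that run does not show how the fit behaves on them. No interval for counting error was computed, since the files hold no raw counts.

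Coordinates are those of the deposited table on mm10, and all 77 members had the same coordinates in GENCODE M21, which gave transcript lengths, overlaps and head-to-head starts (within 1000 bases, or overlapping by up to 500). Promoter sequences are from RefSeq (GRCm38.p6). Copies were searched with blastn 2.17.0. The rule for named genes took, per subunit, the 5 called members that rose most and the 5 that fell most among those with a mean of at least 50, and the 3 highest and 3 lowest levels per kilobase of exon (the same per kilobase of principal transcript was added), then Mrps30, Mrps18a, Mrps36, every member not called, up to 4 genes of each related list by adjusted p, Cth and Atf4. Some genes that the rule selects are left out of the text. Other genes named were chosen after their values were seen. The members, lists and tests were chosen with earlier results of these data known. Alternatives covered scaling, filter, pseudocount, variance model, a minimum fold, a replicate block, left-out and averaged libraries, a correction for shared start positions, biotypes and the definition of members.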

Additional observations from a re-analysis of the deposited data

How the results depend on the processing

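No called member changed sign under any of the alternatives run. Of the 52 calls, 52 were kept with recomputed size factors, 50 under upper-quartile scaling (3 gained) and 49 with equal totals (8 gained), where the median of all genes was 0.05 and 0.08 on the log2 scale. Under these last settings the median log2 fold change was 0.21 and 0.23 for the large subunit and 0.18 and 0.20 for the small subunit. A test against a fold of 1.2 called 6711 genes, with 8 rises and 2 falls in the large and 6 rises and 1 fall in the small subunit. Averaging WT into 1 sample left 17 rises and 3 falls in the large and 9 rises and 2 falls in the small subunit (31 calls kept). Averaging CSE-KO 2 and CSE-KO 3 as well left 14 rises and 3 falls in the large and 7 rises and 2 falls in the small subunit. In both settings the lone samples are assumed to vary like the others.

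Leaving out each library in turn kept 45 to 49 of the 52 calls, gave large subunit medians of 0.14 to 0.16, and moved the difference between the subunit medians to between 0.0091 (without CSE-KO 1) and 0.038 (without CSE-KO 3). The calls lost in this way were those of Mrpl12, Mrpl15, Mrpl22, Mrpl36, Mrpl46, Mrpl54, Mrpl55, Mrpl57, Mrpl58, Mrps16 and Mrps34. In their deviations from the group means, same-numbered libraries correlated at −0.0008, 0.020 and 0.011. These values cannot decide whether the replicate numbers pair the libraries, since most deviations were no larger than counting error would be in unscaled counts. A replicate block kept 50 of 52 calls, with 25 rises and 7 falls in the large and 13 rises and 5 falls in the small subunit.

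Added after seeing the data, a correction for shared start positions with principal transcript lengths gave a large subunit median of 0.19 and a difference of 0.045. Leaving out members that overlap a gene on the other strand gave 14 rises, 5 falls and a median of 0.13 in the large subunit, 3 falls in the small subunit and a difference of −0.015. These last counts fall by construction, since fewer genes enter. For other settings and moved values the cause was not tested. Among single genes and related lists, 49 values lost their call, 20 gained it, 51 counts or values moved by more than the limit used and none changed sign. Members with few counts, such as Mrps36, Mrps33 and Mrpl23, are limited by depth.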

Other observations

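Mitochondrial chaperones and proteases, which fold, process and degrade imported proteins, were all called. Of 17 genes 14 were higher and 3 lower, with a median log2 fold change of 0.27. Among all tested genes 77.4% were called, 38.3% higher and 39.0% lower. Hspa9, the chaperone that pulls proteins through the import channel, had 2168, 2191 and 2173 normalized counts in CSE-KO 1 to 3, against 1438, 1454 and 1411 in WT 1 to 3 (log2 fold change 0.60, SE 0.021, adjusted p = 1.47e-09). Lonp1, the matrix protease, had 1199, 1231 and 1219 in CSE-KO 1 to 3, against 815, 835 and 815 in WT 1 to 3 (log2 fold change 0.57, adjusted p = 8.84e-09). Hspe1, the co-chaperonin, rose by 0.91 on the log2 scale and its partner Hspd1 by 0.27. Pmpcb, a subunit of the peptidase that cleaves import signals, rose by 0.45. Oma1, a stress protease of the inner membrane, went the other way, with 108, 89 and 109 in CSE-KO 1 to 3, against 170, 185 and 196 in WT 1 to 3 (log2 fold change −0.85, adjusted p = 1.26e-05), and Spg7 and Trap1 fell by 0.23 and 0.15.

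The mitochondrial aminoacyl-tRNA synthetases, which load the tRNAs used by the mitochondrial ribosome, leaned lower. Of 17 genes 4 were higher (23.5%) and 8 lower (47.1%), against 38.3% and 39.0% of all tested genes. Their median log2 fold change was −0.23. Iars2 had 696, 585 and 624 normalized counts in CSE-KO 1 to 3, against 1212, 1190 and 1169 in WT 1 to 3 (log2 fold change −0.91, adjusted p = 1.26e-06). Tars2 and Lars2 fell by 0.65 and 0.53. Ears2, Mars2, Yars2 and Rars2 rose, by 0.63, 0.50, 0.40 and 0.17. The difference between these lists and the mitoribosomal genes was not tested.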
